A study of Sus scrofa with 26 samples.

Results

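Mitochondrial ribosomal protein genes were followed in the subcutaneous adipose tissue (SCAT) of pigs. Members were the probes of the Agilent pig array whose gene, by the symbol, accession or description in the scanner files, had a name starting with MRPL or MRPS followed by a digit. The rule took 107 of 60305 probes, covering 62 genes. Of these, 100 probes and 60 genes were bright enough to be tested, meaning well above background on at least 8 of 26 arrays. The probes for MRPS23 and MRPS35 were not, and neither were a further probe each for MRPL3, MRPL30, MRPL47, MRPS9 and MRPS18C.

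SCAT came from 26 castrated male pigs, with 1 array per pig. Creole pigs (3 at TN, 5 at HS), Large White (LW) pigs (4 at TN, 5 at HS) and their F1 crosses (4 at TN, 5 at HS) were kept either at the thermoneutral temperature (TN, 24 °C, 11 arrays) or in the heat (HS). Sample labels give 30 °C for HS (15 arrays), whereas the series text gives 32 °C for 5 days. TN pigs were slaughtered before the temperature was raised, so temperature, slaughter day and age cannot be told apart. Litters were split over pens and temperatures by the study's design, so littermates lie within the breeds on both sides of the temperature comparison, and the labels do not say which pigs they are. Backfat is a mixture of cells, and in such bulk samples fewer cells of a type and less RNA per cell cannot be told apart.

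Each array had between 41314 and 46185 of 60306 spots well above background, and any pair of arrays correlated at between 0.97 and 0.99 whether or not both came from the same group. Adipocyte markers were bright, with a summed linear level between 816453 and 952795 over the 8 tested genes on the 26 arrays. No other tissue was set beside them, so this does not test the tissue label. Skeletal muscle markers were also present, with a summed level over 9 genes from 26733 to 385823. A difference below is a log2 difference between group means from 1 limma fit over all 44703 tested probes, with SE its standard error, and a gene was called when its Benjamini-Hochberg adjusted p over all those probes was under 0.05. Levels are log2 quantile-normalized intensities and are compared only between arrays for the same probe. Each gene is given by its brightest tested probe unless several are named.

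The mitochondrial ribosome translates the few proteins encoded by mitochondrial DNA, all of them subunits of the respiratory chain and ATP synthase. Its RNAs come from the mitochondrial genome, but every one of its proteins is made from a nuclear gene and imported. Many MRP proteins have counterparts in bacterial ribosomes and the rest are specific to mitochondria. Names do not always give the location, since MRPS30 and MRPS18A sit in the large subunit and MRPS36 is a component of the α-ketoglutarate dehydrogenase complex. In adipocytes, mitochondria supply energy and intermediates for lipid synthesis and breakdown.

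The array measures each gene through 60-base probes. The sequences below, written 5′ to 3′, belong to the probes on which the results turn. They cover the member with the largest fall at HS (MRPL37) and the member with the largest breed difference (MRPS2). Also given are genes whose probes repeat or contradict each other (MRPL3, MRPL18, MRPL21) and a gene with a probe lacking overlap between LW and Creole (MRPL9). Some are given by their first 30 bases.
MRPL37, probe O10627: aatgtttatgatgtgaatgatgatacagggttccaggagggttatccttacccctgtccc
MRPS2, probe O6203: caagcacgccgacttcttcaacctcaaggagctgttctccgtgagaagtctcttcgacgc
MRPL9, probe O9386: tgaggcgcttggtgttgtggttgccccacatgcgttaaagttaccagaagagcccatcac
MRPL9, probe A_72_P406268, first 30 bases: ttggaattcattggaacaaatggtaaagct
MRPL3, probes A_72_P116236 and A_72_P484843, first 30 bases: ggcgatttgcatattagcaagttctttgta
MRPL3, probe A_72_P607183, first 30 bases: cttagttaccaacttatcttttgtcaaggg
MRPL18, probe O13015: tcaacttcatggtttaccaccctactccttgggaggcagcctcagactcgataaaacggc
MRPL18, probe A_72_P737455: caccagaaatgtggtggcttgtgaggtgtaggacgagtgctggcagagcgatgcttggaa
MRPL18, 30 of the 38 bases common to 4 probes: cgtgagagaagtgtctgagaaaagctgttg
MRPL21, probe A_72_P073751, first 30 bases: cagaggccaggcttcctgcaagagaattgc
MRPL21, probe O12769, first 30 bases: ccacggtcattgaaaagacagaatcatggc

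Heat was accompanied by lower levels of part of this gene family. Of 60 genes tested, 11 were called lower at HS and 0 higher. An unadjusted p under 0.05 in limma was held by 27, falls and rises together, and the matching all-gene share was not counted. Over all 10321 named genes, 7.65% were called lower and 4.91% higher, 12.6% in either direction. The members' 18.3% is thus above the all-gene share for lower calls and closer to the share for both directions, and the difference between shares was not tested. The median log2 difference was -0.11 over the 60 members and -0.004 over all named genes, and 44 of 60 members (73.3%) had a negative difference against 51.1% of all genes. At the level of probes, 14 of 100 were called, each lower, against 7.02% of all probes called lower.

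**Figure D1:**
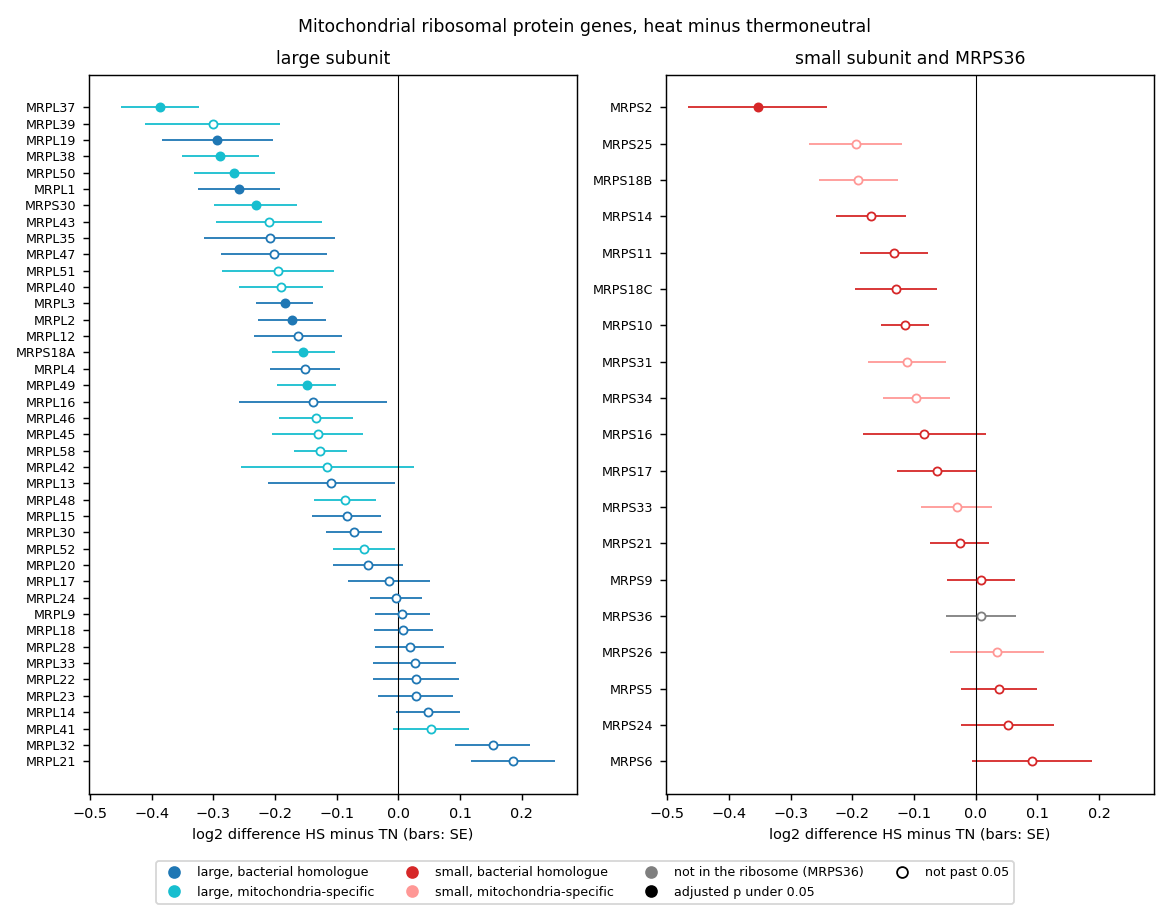
Log2 difference HS minus TN (x axis, bars are SE) for the 60 tested member genes, large subunit on the left and small subunit with MRPS36 on the right. Filled points are called at an adjusted p under 0.05; all 11 of them lie below 0, from -0.15 (MRPL49) to -0.39 (MRPL37).

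MRPL37, a mitochondria-specific protein of the large subunit, had the largest difference at -0.39 ± 0.06 (SE), adjusted p = 0.000526, a level 23.5% lower. Its log2 levels were 10.51, 10.43 and 10.40 in Creole TN and 10.30, 10.18, 9.96, 10.01 and 9.99 in Creole HS. In F1 they were 10.35, 10.49, 10.47 and 10.53 at TN and 9.996, 9.95, 9.73, 10.24 and 10.12 at HS, and in LW 10.05, 10.46, 10.06 and 10.16 at TN and 10.005, 9.60, 9.66, 9.90 and 10.04 at HS. TN and HS did not overlap within Creole, F1 or LW, and 11 of 15 HS arrays were below all 11 TN arrays. It was the only member lower without overlap in each breed (1 of 60, against 0.165% of all named genes).

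MRPL38, another mitochondria-specific protein of the large subunit, had levels of 8.62, 9.16 and 9.36 (lowest, median and highest of 11) at TN and 8.39, 8.88 and 9.19 (of 15) at HS. The difference was -0.29 ± 0.06 (SE), adjusted p = 0.00374, and 14 of 15 HS arrays were below the TN mean of their own breed. MRPL50 is of the same class, and its levels were 8.67, 8.78 and 8.96 (lowest, median and highest of 11) at TN and 8.15, 8.62 and 8.90 (of 15) at HS. Its 11 HS arrays below every TN array accompanied a difference of -0.27 ± 0.07 (SE), adjusted p = 0.00926. MRPS30, in the large subunit despite its name, fell by 0.23 ± 0.07 on the log2 scale (adjusted p = 0.0254), with 10 of 15 HS arrays below the TN median. MRPS18A, 1 of 3 paralogues related to bacterial S18 and also in the large subunit, changed by -0.15 ± 0.05 (SE), adjusted p = 0.0469. MRPL49 had the smallest called difference, -0.15 ± 0.05 (SE), adjusted p = 0.0430.

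Among large-subunit proteins with bacterial counterparts, MRPL19, MRPL1, MRPL3 and MRPL2 were called lower at HS. MRPL19 levels were 8.80, 9.02 and 9.21 (lowest, median and highest of 11) at TN and 8.19, 8.87 and 9.26 (of 15) at HS, so the ranges overlapped at the top, and the difference was -0.29 ± 0.09 (SE), adjusted p = 0.0321. MRPL1 belongs to the stalk next to the tRNA exit site. Its levels were 9.31, 9.49 and 9.66 (lowest, median and highest of 11) at TN and 8.84, 9.27 and 9.48 (of 15) at HS, with all 15 HS arrays below the TN median and a difference of -0.26 ± 0.07 (SE), adjusted p = 0.0121. MRPL3 and MRPL2 bind ribosomal RNA near the peptidyl transferase centre. MRPL3 levels were 11.79, 12.10 and 12.19 (lowest, median and highest of 11) at TN and 11.58, 11.94 and 12.05 (of 15) at HS, every HS array again lying below the TN median, and the difference was -0.18 ± 0.05 (SE), adjusted p = 0.0103. MRPL2 differed by -0.17 ± 0.05 (SE), adjusted p = 0.0403.

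Only 1 small-subunit gene was called by its brightest probe, MRPS2, which has a bacterial counterpart. Its levels were 7.19, 7.54 and 8.90 (lowest, median and highest of 11) at TN and 6.87, 7.22 and 7.61 (of 15) at HS. The TN maximum of 8.90 was a single Creole array, whereas the other 10 TN arrays stayed at or below 7.64. The difference was -0.35 ± 0.11 (SE), adjusted p = 0.0400 with that array and -0.22 (adjusted p = 0.0250) without it, so its size rests partly on 1 pig. The adjusted p rose to as much as 0.0752 with another array left out and to 0.272 in other settings.

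Counting by position and origin, 6 of 17 mitochondria-specific and 4 of 24 bacterial-type large-subunit genes were called lower, with median log2 differences of -0.15 and -0.06. In the small subunit, 1 of 12 bacterial-type and 0 of 6 mitochondria-specific genes were called, with medians of -0.07 and -0.10. None of these groups held a called rise, and the share over all genes was 7.65%, close to 1 of 12. Differences between the 4 groups were not tested.

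Several members had differences near 0 or short of the threshold. MRPL18, whose messenger also gives rise to a cytosolic ribosomal protein during heat shock, had a difference of 0.01 ± 0.05 (SE), adjusted p = 0.935, and its levels were 13.43, 13.63 and 13.89 (lowest, median and highest of 11) at TN and 13.47, 13.64 and 13.89 (of 15) at HS. The sign of this small value turned to -0.09 under 75th percentile scaling and to -0.04 as a mean of its 6 probes, neither called. MRPL12, the stalk protein that also binds mitochondrial RNA polymerase, was at -0.16 ± 0.07 (SE), adjusted p = 0.135. MRPS18B and MRPS18C, the small-subunit relatives of MRPS18A, were at -0.19 ± 0.06 (SE), adjusted p = 0.0521, and -0.13 ± 0.07 (SE), adjusted p = 0.217. MRPS36, which is not part of the ribosome, had a difference of 0.01 ± 0.06 (SE), adjusted p = 0.943. The highest positive value, MRPL21 at 0.19 ± 0.07 (SE), adjusted p = 0.0759, was not called here but was with slide as a fixed block (0.22, adjusted p = 0.0185).

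Just outside the threshold lay MRPS14 (-0.17 ± 0.06 (SE), adjusted p = 0.0510), MRPS18B, MRPL58 (-0.13 ± 0.04 (SE), adjusted p = 0.0540) and MRPS10 (-0.11 ± 0.04 (SE), adjusted p = 0.0568). MRPL58 is a peptidyl-tRNA hydrolase built into the large subunit, and its levels were 13.12, 13.31 and 13.39 (lowest, median and highest of 11) at TN and 12.96, 13.17 and 13.40 (of 15) at HS. MRPL39 had one of the largest negative values (-0.30 ± 0.11 (SE), adjusted p = 0.0726) but lay near background, and its TN maximum of 7.26 stood above a TN median of 5.97. MRPL40 (-0.19 ± 0.07 (SE), adjusted p = 0.0652) and MRPL4 (-0.15 ± 0.06 (SE), adjusted p = 0.0832) were bright and negative without being called. At the other end, MRPL22, MRPL23 and MRPL24, proteins around the exit tunnel of the nascent chain, were at 0.03 ± 0.07, 0.03 ± 0.06 and -0.004 ± 0.04.

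Leaving out single pigs changed how many members passed. The 11 calls became 5 without F1 TN replicate 3 or LW TN replicate 2, 6 without F1 TN replicate 1 or LW HS replicate 4, and 7 without F1 HS replicate 1 or 3, LW HS replicate 2 or 3, or LW TN replicate 3. The largest counts were 18 without F1 HS replicate 4, 16 without F1 HS replicate 5 and 15 without F1 TN replicate 2. MRPL37, MRPL38, MRPL50, MRPL1 and MRPL3 remained called in all 26 of these fits. The call was lost for MRPS18A in 18, MRPL49 in 17, MRPL2 in 16, MRPS2 in 12, MRPL19 in 9 and MRPS30 in 2 of them, and in 4, 5, 5, 4, 2 and 2 of 12 other settings. Dropping the breed term left 4 calls. Over all named genes the share called lower in the fits with 5 calls was 6.17% and 5.76%, and without the breed term it was 5.20%, so those member shares lay near the background. With 1 array left out, the all-gene share was 6.28% and 6.22% in the fits with 6 calls. It lay between 6.34% and 7.17% in those with 7, and was 7.72%, 8.25% and 8.58% in those with 15, 16 and 18.

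Markers of other cells moved with temperature too. A red blood cell score over 6 of 9 markers was -0.29 log2 at HS relative to TN (two-sided permutation test, p = 0.000570, Benjamini-Hochberg p over 10 marker lists = 0.00285). Of the 6 genes 4 were negative, with HBB (-0.85 ± 0.21, adjusted p = 0.0110) and EPB42 (-0.38 ± 0.12, adjusted p = 0.0294) called, while SLC4A1 (0.06 ± 0.09) and ALAS2 (0.04 ± 0.15) were above 0 and not called. Without HBB the score was -0.17 (permutation p = 0.00839). The summed linear level of the 6 ranged from 5743 to 7485 at TN and from 4899 to 8435 at HS. By the filter each was well above background on at least 8 arrays, and ALAS2 was dim, with a median of 5.90 at TN and 5.86 at HS. With the score over all 6 as a covariate, 0 of 60 members were called, against 0.368% of all genes called lower. The member median became -0.07 with 41 of 60 negative, and over all probes the calls went from 5447 to 214. Of the 11 genes, MRPL37 was then at -0.33 (adjusted p = 0.0683), MRPL38 at -0.28 (adjusted p = 0.127) and MRPS2 at -0.37 (adjusted p = 0.272) by limma, near their values without the score, and the other 8 lay between -0.22 (MRPL1) and -0.10 (MRPL49). Cell cycle genes were lower as well, with 10 of 13 called and a score of -0.54 (permutation p = 6.00e-05, adjusted 0.000600). The cell cycle sum ran from 4040 to 6766 at TN and from 2879 to 5069 at HS. Fibroblast and matrix genes were called higher for 4 of 7, DCN, COL1A1, COL1A2 and COL3A1 (score 0.27, adjusted permutation p = 0.0743), with sums of 318347 to 799202 at TN and 535846 to 951554 at HS. Because the red blood cell score itself differed between HS and TN, the covariate fit cannot separate it from temperature. The part of these shifts in the members' values was not tested.

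The arrays lay on 5 slides, each holding both temperatures. Ignoring breed, the member median HS minus TN was -0.09, -0.13, -0.23 and -0.07 on slides 1 to 4. Slide 5, where the 2 TN arrays were LW and the 2 HS arrays were Creole and F1, gave 0.03. With slide as a fixed block, 13 members were called lower, the 11 among them, where 8.21% of all genes were called lower.

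Taken breed by breed, the median log2 difference over the 60 members was -0.10 in Creole, -0.05 in F1 and -0.18 in LW. Negative values were held by 43, 40 and 47 of 60 genes, and 30 of 60 were negative in all 3 breeds, against 23.7% of all named genes. In no breed was a member called by its brightest probe, where 0.0775% of genes in Creole, 0.426% in F1 and 1.40% in LW were called overall. Unadjusted p-values under 0.05 in limma numbered 10, 8 and 21, falls and rises together, and the matching all-gene shares were not counted. MRPL37 was the member with the smallest p in Creole (-0.36 ± 0.12 (SE), adjusted p = 0.253) and in F1 (-0.45 ± 0.11 (SE), adjusted p = 0.0612). In LW it was MRPL3 (-0.26 ± 0.08 (SE), adjusted p = 0.0846), followed by MRPL50 (-0.37 ± 0.11 (SE), adjusted p = 0.0865) and MRPL49 (-0.26 ± 0.08 (SE), adjusted p = 0.0912).

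Individual probes did reach the threshold within LW, 3 of 100 against 1.09% of all probes called lower there. Both other bright MRPL3 probes were called there, at -0.33 ± 0.07 (adjusted p = 0.0254) and -0.31 ± 0.08 (adjusted p = 0.0418), as was the second MRPL21 probe (-0.44 ± 0.11, adjusted p = 0.0472). The remaining genes named for their small p were MRPL38 (-0.35 ± 0.12) and MRPL13 (-0.49 ± 0.17) in Creole, and MRPS26 (0.30 ± 0.11) and MRPL15 (-0.23 ± 0.09) in F1, none called. MRPL13 was well above background on only 11 of 26 arrays, including 1 of the 3 Creole TN arrays, so its value leans on dim spots. Without Creole TN replicate 3 its difference within Creole was -0.14 (adjusted p = 0.766, limma).

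Whether breeds differed in their change was asked with the interaction term in limma. It called 0 of 60 members and 0% of 10321 genes, and 2 members had an unadjusted p under 0.05 in limma. MRPS26 had an adjusted p of 0.897 (unadjusted 0.0253, limma) from changes of -0.10, 0.30 and -0.12 in Creole, F1 and LW. MRPL13 had an adjusted p of 0.897 (unadjusted 0.0405, limma). With 3 to 5 pigs a group, a breed difference in the change is not shown, and these data do not show its absence.

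**Figure D2:**
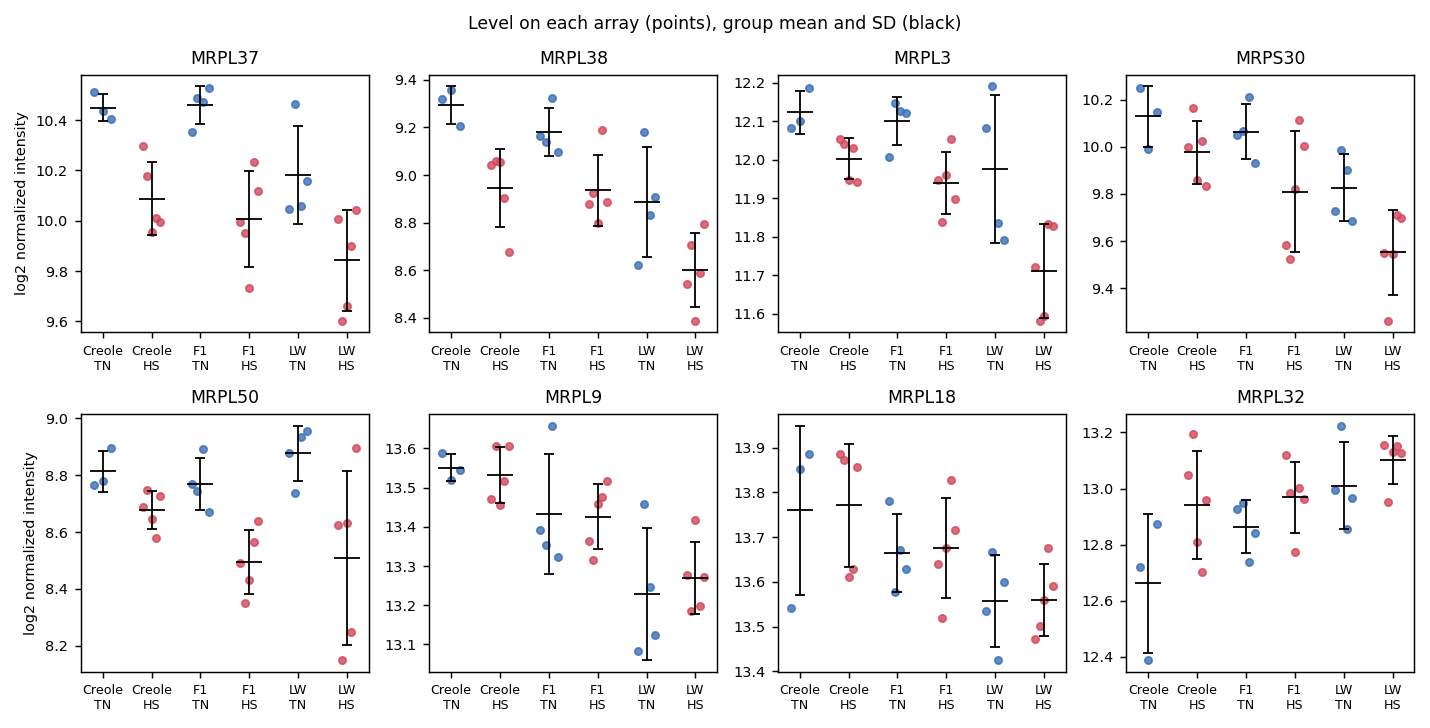
Log2 normalized intensity (y axis) of 8 member genes on each array (points, blue TN and red HS) in the 6 groups (x axis), with group mean and SD in black. MRPL37 separates TN from HS inside each breed, whereas MRPL9 and MRPL18 were called between LW and Creole and not for temperature.

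Members also differed between breeds. Between LW and Creole, with temperature in the fit, 17 of 60 genes were called lower in LW and 1 higher, where 8.60% and 6.70% of all named genes were called in those directions. The share called lower was 28.3% of members. The median difference was -0.13 over members and -0.01 over all genes, and 51 of 60 members were negative. Any difference among the 3 breeds was called for 17 members (28.3%, against 11.8% of all genes), a count that became 10 with slide as a fixed block, 8 with a skeletal muscle covariate, and 8 without LW HS replicate 2 or 3. The all-gene shares in those fits were 9.74%, 7.69%, 8.06% and 8.71%. The 17 lower genes became 11 with the skeletal muscle covariate, where 5.43% of all genes were called lower. In the other settings that count lay between 17 and 25, and between 14 and 23 when 1 array was left out.

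**Figure D3:**
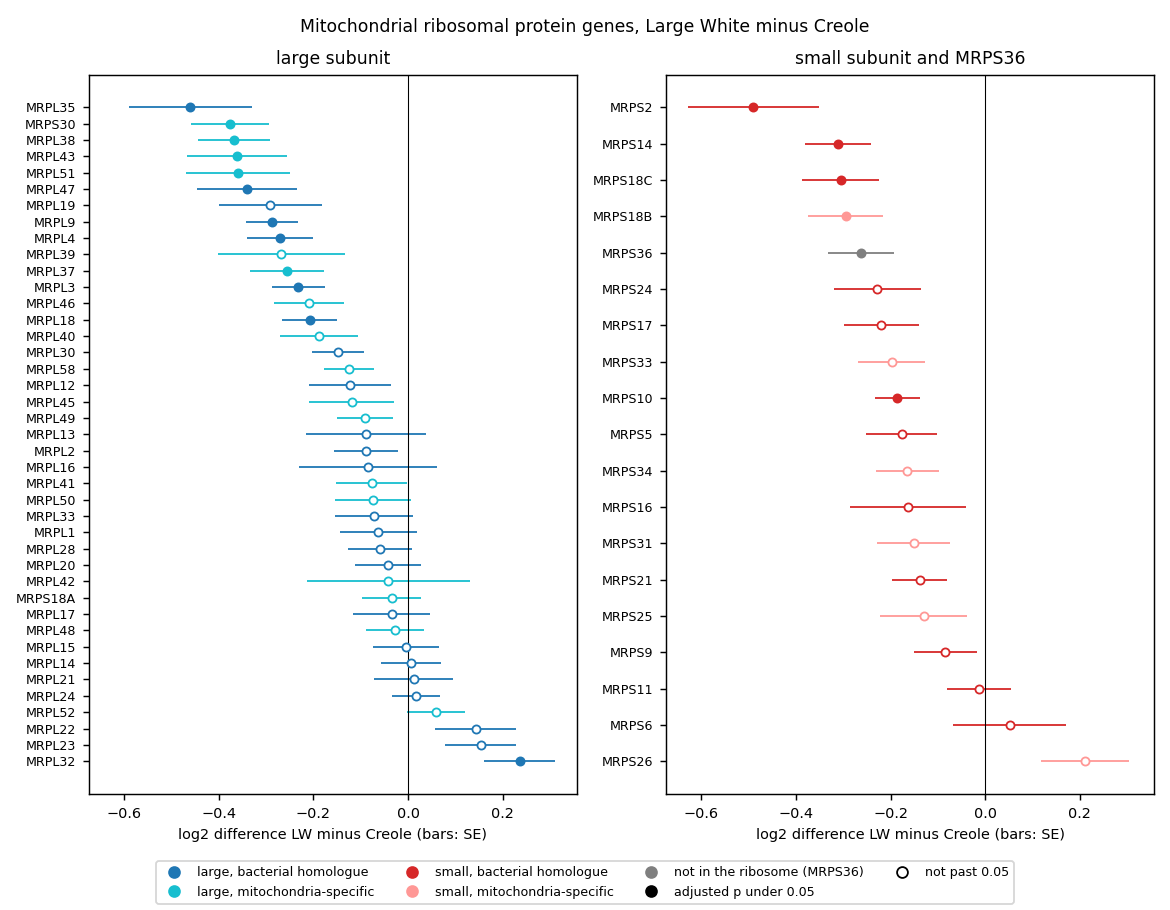
Log2 difference LW minus Creole (x axis, bars are SE) for the same 60 genes, laid out by subunit. Filled points are called; 17 lie below 0, down to -0.49 for MRPS2, and 1 above 0 (MRPL32, 0.24).

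MRPS2 had the largest difference, -0.49 ± 0.14 (SE), adjusted p = 0.0188. Its levels were 7.20, 7.44 and 8.90 on the 8 Creole arrays and 6.87, 7.13 and 7.52 on the 9 LW arrays (lowest, median and highest), and 6 of 9 LW arrays were below every Creole array. Without the Creole TN array at 8.90 the difference was -0.31 (adjusted p = 0.0110). MRPL35, a bacterial-type protein of the large subunit, had levels of 8.39, 8.79 and 9.23 on the 8 Creole arrays and 8.10, 8.40 and 8.85 on the 9 LW arrays, with a difference of -0.46 ± 0.13 (SE), adjusted p = 0.0196. MRPS30 stood at 9.83, 10.01 and 10.25 on the 8 Creole arrays and 9.26, 9.70 and 9.99 on the 9 LW arrays, 7 of 9 LW arrays being below the Creole minimum, and differed by -0.38 ± 0.08 (SE), adjusted p = 0.00434. MRPL38 differed by -0.37 ± 0.08 (SE), adjusted p = 0.00284.

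MRPS36, the α-ketoglutarate dehydrogenase component, was the only gene whose brightest probe did not overlap between LW and Creole. Its levels were 7.71, 7.81 and 8.14 on the 8 Creole arrays and 7.42, 7.58 and 7.68 on the 9 LW arrays (lowest, median and highest), and the difference was -0.26 ± 0.07 (SE), adjusted p = 0.0130. Over all named genes, 0.465% were lower in LW without overlap, against 1 of 60 members. MRPL32, a protein cleaved by the m-AAA protease before it joins the ribosome, was the only member called higher in LW. It had levels of 12.39, 12.84 and 13.19 on the 8 Creole arrays and 12.86, 13.13 and 13.22 on the 9 LW arrays and a difference of 0.24 ± 0.07 (SE), adjusted p = 0.0342. This call was lost under 75th percentile scaling, as a mean of probes, with the skeletal muscle covariate, and without Creole TN replicate 1 or 2, Creole HS replicate 3 or 4, LW TN replicate 1 or 2, or LW HS replicate 3 or 4.

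The other genes called lower in LW were MRPL43, MRPL51, MRPL47, MRPS14, MRPS18C, MRPS18B, MRPL9, MRPL4, MRPL37, MRPL3, MRPL18 and MRPS10, from -0.36 (MRPL43) to -0.19 (MRPS10). MRPS18B and MRPS18C differed by -0.30 ± 0.08 and -0.31 ± 0.08, both called, whereas MRPS18A was at -0.03 ± 0.06 (SE), adjusted p = 0.758. MRPL12 was at -0.12 ± 0.09 (SE), adjusted p = 0.366. MRPL3 stood at 11.94, 12.05 and 12.19 on the 8 Creole arrays and 11.58, 11.83 and 12.19 on the 9 LW arrays, with 7 LW arrays below every Creole array and a difference of -0.23 ± 0.06 (SE), adjusted p = 0.00810. MRPL4 had the same count of 7, with levels of 12.75, 12.85 and 13.11 on the 8 Creole arrays and 12.44, 12.64 and 12.83 on the 9 LW arrays and a difference of -0.27 ± 0.07 (SE), adjusted p = 0.0118. MRPS14 was lower on all 9 LW arrays than the Creole mean (-0.31 ± 0.07 (SE), adjusted p = 0.00495), as was MRPL51 (-0.36 ± 0.11 (SE), adjusted p = 0.0298). MRPL43 levels were 9.80, 10.48 and 10.78 on the 8 Creole arrays and 9.85, 10.04 and 10.32 on the 9 LW arrays, so no LW array was below the lowest Creole array although the difference was -0.36 ± 0.11 (SE), adjusted p = 0.0226. By class, 6 of 24 bacterial-type and 5 of 17 mitochondria-specific large-subunit genes, 4 of 12 bacterial-type and 1 of 6 mitochondria-specific small-subunit genes, and MRPS36 were lower in LW, against 8.60% of all genes, and differences between classes were not tested.

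F1 pigs were compared with the mean of both parental breeds. No member was called, and 0% of the 10321 named genes were. An unadjusted p under 0.05 in limma was held by 7 members in either direction, and the matching all-gene share was not counted. The member median was 0.04, and 42 of 60 members were above the mid-parent value where 50.7% of all genes were. The smallest p-values belonged to MRPS25 (0.20 ± 0.08 (SE), adjusted p = 0.443) and MRPL48 (0.13 ± 0.05 (SE), adjusted p = 0.473).

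**Figure D4:**
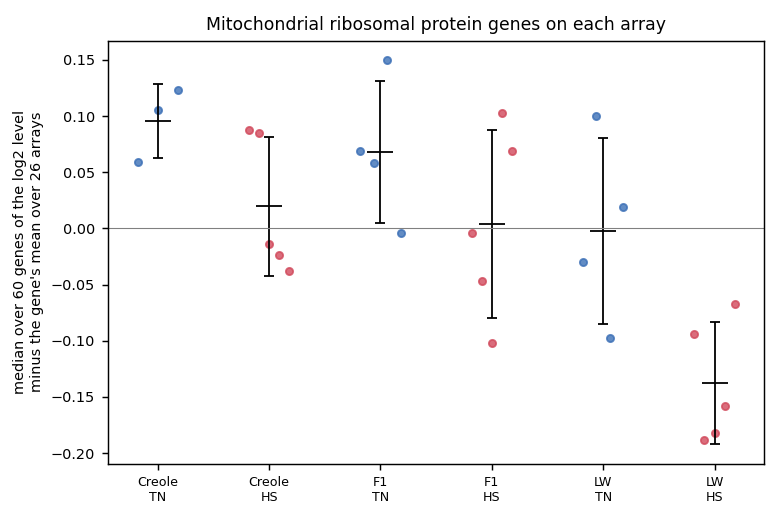
Median over the 60 members of the log2 level minus each gene's mean over 26 arrays (y axis) for each array (points) in the 6 groups (x axis), with group mean and SD in black. All 5 LW HS arrays lie below 0, from -0.19 to -0.07, and the 3 Creole TN arrays above it, from 0.06 to 0.12.

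On single arrays, between 8 and 53 of the 60 genes were below their own mean over all arrays. In the Creole TN group the counts ran from 8 to 22, and in LW HS from 36 to 53. LW TN arrays (16 to 40) overlapped with Creole HS (11 to 37) and with both F1 groups.

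Cell markers also differed between the breeds. The adipocyte score over 8 genes was -0.21 in LW relative to Creole (two-sided exact permutation test over the 17 arrays, p = 8.23e-05, adjusted 0.000823), with 7 of 8 genes negative. Only LEP was called (-1.23 ± 0.41, adjusted p = 0.0438), and without it the score over 7 genes was -0.07 (exact permutation p = 0.0662). The adipocyte sum ranged from 836588 to 950670 in Creole and from 816453 to 952795 in LW. Endothelial genes had a score of 0.22 (adjusted exact permutation p = 0.0126), led by the only called gene KDR (0.87 ± 0.16, adjusted p = 0.00136), and of 0.09 without it (exact permutation p = 0.206), with sums of 80358 to 114913 in Creole and 76804 to 127941 in LW. Fibroblast and matrix genes were called higher in LW for 4 of 7, DCN, COL1A1, COL1A2 and FBLN1. For these lists the part in the members' breed differences was not tested. Red blood cell and cell cycle scores were 0.01 and 0.03. With the red blood cell covariate 18 members were called lower in LW, where 8.7% of all genes were called lower.

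Muscle markers varied widely between arrays. Their summed level (lowest, median and highest) was 26733, 30329 and 70875 in LW TN, 44888, 76590 and 201113 in LW HS, 63587, 68730 and 123037 in Creole TN and 29296, 71296 and 385823 in Creole HS, so LW TN held the lowest median and single HS arrays the highest values. Within LW the median HS minus TN over the 9 genes was 1.77, all 9 positive, and for LW minus Creole it was -0.92, all 9 negative, with 0 called in either. The marker score differed by -0.89 between LW and Creole (exact permutation p = 0.166, adjusted 0.332) and by 0.50 between HS and TN (permutation p = 0.270, adjusted 0.371). With that score as a covariate, chosen after the data were seen, 13 members were called lower at HS, 8 of the 11 among them, where 9.33% of all genes were called lower. Between breeds 11 were lower in LW and 0 higher, and MRPS2 (-0.43, adjusted p = 0.0606), MRPL35 (-0.41, adjusted p = 0.0612) and MRPL32 (0.23, adjusted p = 0.0752) were among those no longer called by limma, with differences near those of -0.49, -0.46 and 0.24 without the covariate. Within LW, 3.24% of all genes were called lower at HS with the covariate, and 3 of 60 members, MRPL19 (-0.59, adjusted p = 0.0274), MRPL1 (-0.43, adjusted p = 0.0404) and MRPL3 (-0.29, adjusted p = 0.0497).

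Within slides, the member median LW minus Creole was -0.22, -0.24, -0.03 and 0.03 on slides 2 to 5 without regard to temperature, and slide 1 held no LW array. Temperatures were unevenly shared: slide 5 set LW at TN against Creole at HS. With slide as a fixed block, 17 members were called lower in LW, where 7.89% of all genes were called lower.

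Probe agreement could be checked in 26 genes with 2 or more tested probes. For HS minus TN, all probes had negative differences in 13 genes, positive in 1 and mixed signs in 12, but no gene had probes called in opposite directions. For LW minus Creole the numbers were 18, 2 and 6. Among 75 pairs of probes to the same gene, 12 pairs in 6 genes shared a run of at least 15 bases, in 1 of them on opposite strands, and no such run was shared between different member genes.

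**Figure D5:**
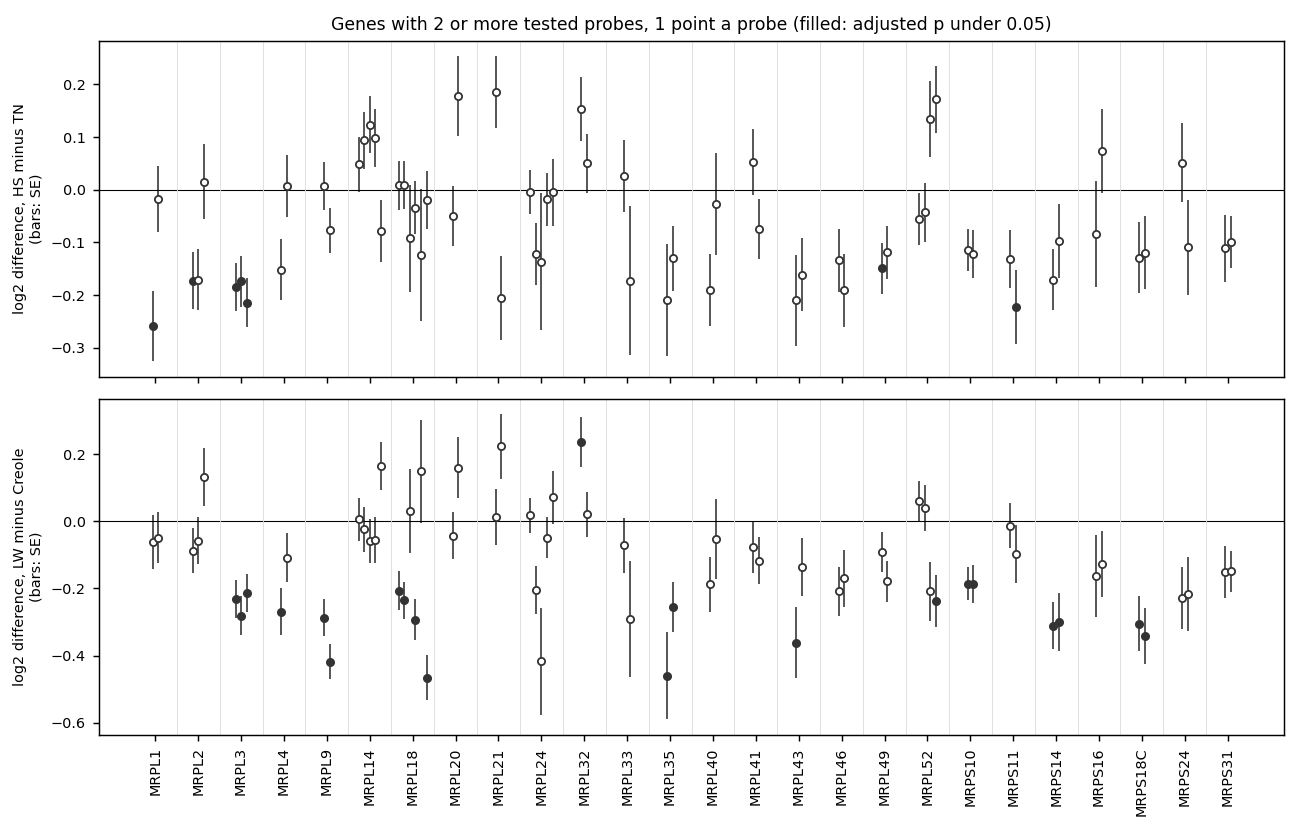
Log2 differences (y axis, bars are SE) of every tested probe in the 26 genes with several, HS minus TN above and LW minus Creole below, filled where called. The 3 MRPL3 probes lie together in both panels, while the 6 MRPL18 probes spread from -0.47 to 0.15 between breeds.

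Probes with the same 60 bases show the spread between spots of an array. They share its RNA, labelling and hybridisation, so technical differences between arrays are not part of that spread. The 2 identical MRPL3 probes gave -0.18 ± 0.05 and -0.17 ± 0.05 for HS minus TN, and the SD of their difference over 26 arrays was 0.0882 log2. For MRPL18 that SD was 0.0547, and for MRPS18C 0.0658. Each was smaller than the SD of either probe over the arrays, which lay between 0.136 and 0.224. The third MRPL3 probe, of unrelated sequence, also gave a called -0.21 ± 0.05 with heat, and -0.21 ± 0.06 between breeds.

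MRPL9 and MRPL18 held the smallest breed p-values of all member probes. MRPL9 probe O9386, whose sequence is printed above, ran from 11.61 to 11.81 in Creole and 11.18 to 11.50 in LW, a gap with no overlap, at -0.42 ± 0.05 (adjusted p = 3.13e-05). The brighter MRPL9 probe gave -0.29 ± 0.06 (adjusted p = 0.00168). MRPL18 probe A_72_P737455 ran from 11.33 to 11.72 in Creole and 10.93 to 11.28 in LW, again without overlap, at -0.47 ± 0.07 (adjusted p = 0.000166). With the MRPS36 probe, 3 of 100 member probes were lower in LW without overlap, against 0.371% of all probes, and 28 of 100 were called lower, against 7.43%. No probe of either gene was called for temperature (0 of 8).

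Overlap in sequence did not bring agreement within MRPL18. Among its 4 probes with 38 bases in common, 2 are identical and gave -0.21 ± 0.06 and -0.24 ± 0.06 between breeds, both called. The other pair, shifted towards the 3′ end and sharing 51 bases with each other, gave 0.03 ± 0.12 and 0.15 ± 0.15. On the first the Creole arrays ranged from 11.50 to 12.62 and LW from 12.0005 to 12.37, and on the second Creole ranged from 10.69 to 12.14 and LW from 11.55 to 11.94, the wider range being that of Creole each time. MRPL18 probe O13015 gave -0.29 ± 0.06 (adjusted p = 0.00318). MRPL21 is the clearest disagreement with temperature, its probes sharing no run of 15 bases and differing by 0.19 ± 0.07 and -0.21 ± 0.08 (adjusted p = 0.0759 and 0.0902).

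Neighbouring parts of mitochondrial gene expression were counted from lists of known members, to be read against the 7.65% of all genes called lower and 4.91% called higher at HS. Counts of 1 or 2 in lists this short give no result about a list. Ribosomal proteins of the mitochondria under other names had 1 of 4 called lower at HS and 0 higher, namely DAP3, a GTP-binding small-subunit protein (-0.16 ± 0.04, adjusted p = 0.0165); GADD45GIP1 was at -0.17 ± 0.09, adjusted p = 0.202. Translation factors and messenger stabilizers had 2 of 13 lower, TUFM, the elongation factor that delivers tRNA (-0.24 ± 0.08, adjusted p = 0.0440), and SLIRP, a partner of LRPPRC (-0.21 ± 0.07, adjusted p = 0.0399). Mitoribosome assembly factors had 2 of 10 lower, C1QBP (-0.26 ± 0.07, adjusted p = 0.0152) and RBFA (-0.15 ± 0.05, adjusted p = 0.0464). Of 15 mitochondrial tRNA synthetases, NARS2 (-0.25 ± 0.05, adjusted p = 0.00268) and QRSL1, a subunit of the glutamyl-tRNA amidotransferase counted with them, were lower and TARS2 (0.26 ± 0.05, adjusted p = 0.00257) was the 1 higher.

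Genes for transcription and upkeep of mitochondrial DNA had 1 of 6 lower, TFAM, which packages and helps transcribe that DNA (-0.13 ± 0.04, adjusted p = 0.0271); SUPV3L1 was at -0.20 ± 0.07, adjusted p = 0.0548. Regulators of mitochondrial genes had 2 of 8 lower, GABPA (-0.20 ± 0.06, adjusted p = 0.0241) and MYC (-0.48 ± 0.14, adjusted p = 0.0272), and 1 higher, TFEB. Complex I, which contains proteins made by this ribosome, had 9 of 33 nuclear-encoded subunits lower, against 7.65% of all genes, and 0 higher (median -0.13). Its smallest p-values were those of NDUFV2 (-0.31 ± 0.06, adjusted p = 0.00217) and NDUFB6 (-0.33 ± 0.08, adjusted p = 0.0103). Between breeds, 10 of the 33 were lower and 1, NDUFV3, higher in LW (median -0.19), where 8.60% and 6.70% of all genes were called.

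The same lists were read between LW and Creole, where 8.60% of all genes were called lower and 6.70% higher, and the genes given here were chosen after their values were seen. Among translation factors 3 of 13 were lower in LW and 0 higher, TACO1, an activator of COX1 translation (-0.41 ± 0.11, adjusted p = 0.0110), MTFMT, which formylates the initiator tRNA (-0.23 ± 0.06, adjusted p = 0.0171), and the release factor family member MTRF1 (-0.32 ± 0.10, adjusted p = 0.0258). DAP3 was lower (-0.17 ± 0.05, adjusted p = 0.0320). Among tRNA synthetases TARS2 was higher (0.26 ± 0.07, adjusted p = 0.00974), and among genes for mitochondrial DNA the polymerase POLG (-0.37 ± 0.06, adjusted p = 0.000737) and the protease LONP1 (-0.23 ± 0.07, adjusted p = 0.0248) were lower. No assembly factor of 10 was called. PPARGC1A, a coactivator of mitochondrial genes, was the 1 of 8 regulators called, and it was higher in LW (0.36 ± 0.10, adjusted p = 0.0201).

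Cytosolic ribosomal proteins, which build the ribosome outside the mitochondria, had medians of the opposite sign. Of 69 tested, 0 were lower and 4 higher at HS (median 0.06), namely RPL32 (0.11 ± 0.03, adjusted p = 0.0159), RPL11 (0.10 ± 0.03, adjusted p = 0.0277) and, named after their values were seen, RPS20 and RPL22. That share is close to the 4.91% of all genes called higher. In LW relative to Creole, 0 were lower and 17 higher (median 0.11), against 6.70% of all genes called higher. Members of both ribosomes therefore had medians of opposite sign in both comparisons, -0.11 against 0.06 with heat and -0.13 against 0.11 between breeds, and this contrast was not tested. All comparisons here share the same 26 arrays.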

How the data were processed

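Total RNA of subcutaneous fat from 26 pigs was hybridised to 1-colour (Cy3) Agilent arrays. Per the file headers and labels, the authors' spot intensities came from Agilent Feature Extraction 10.10.1.1. The deposited flags for background, saturation and uniformity were used, with no unit of their own. The authors also deposited a log2 table of quantile-normalized values, used here as an alternative; its 44104 probes cover 59 of the 60 tested members.

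From the deposited median pixel intensity, 209 of the non-uniform spots were set to missing (0 among members), values were quantile-normalized between arrays, repeated spots averaged and log2 taken. No spot was saturated. Of 60305 probes, the 44703 detected (flagged well above background by the scanner software) on 8 or more arrays were fitted with limma 3.58.1 (R 4.3.3, empirical Bayes with an intensity trend) on breed and temperature, or on the 6 groups for changes within breeds and the interaction, following the study's fixed effects. Pen, slaughter series and parents are not in the sample labels and were left out. Benjamini-Hochberg adjustment ran over all tested probes. Pigs of a breed included littermates, which could not be entered as blocks, so pigs were treated as independent. The fit was tested on simulated data.

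Probes were named through accessions and symbols in a RefSeq gene table (Sscrofa11.1) and through the file's own columns, 72 members by symbol, 20 by accession, 13 by description and 2 by a symbol found in the file alone. Coordinates are not given because the files name no genome build. The members and lists were chosen with earlier results of these data known. Genes named in the text were the called members (up to 12 falls and 8 rises) for temperature, the 4 largest differences in each direction between LW and Creole, the 2 or 3 smallest p-values in the other comparisons and other lists, 6 genes always named, and any gene with probes called in opposite directions. Probes that disagree or have no overlap between groups, MRPS11, the called members and list genes outside this rule, were described after their values were seen. Alternatives were other scalings, background correction, filters, slide as a block, array weights, a red blood cell covariate, a skeletal muscle covariate (added after the data were seen), no breed term, means of probes and leaving out each array. The number of arrays limits the precision. One result for a listed gene is not reported here.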

Additional observations from a re-analysis of the deposited data

Results flagged for a closer look

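Among 115 groups of 4 or 5 arrays examined for 23 named genes, 2 held an array apart from the rest by Dixon's criterion, where chance alone gives about 1 in 20. In LW HS, replicate 2 had an MRPL32 level of 12.95 with the next array at 13.13. In Creole HS, replicate 5 had an MRPS25 level of 9.58 with the next array at 10.19. Neither gene was called for temperature. MRPL32 was called higher in LW, and this held without LW HS replicate 2.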

How the results depend on the processing

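The 11 genes called lower at HS became 18 under 75th percentile scaling (10 of the 11 kept), 7 with no filter on dim probes, 18 with array weights (all-gene shares called lower of 10.7%, 6.49% and 9.60%), 0 with the red blood cell covariate and 4 without the breed term, and 5 to 18 with 1 array left out. Under 75th percentile scaling the member median was -0.18, with 53 of 60 negative, while the median of all genes was -0.01. Of all named genes called, 1106 were then lower and 419 higher, against 790 and 507. Calls higher at HS were 0 except for 1 (MRPL21) with slide as a fixed block, and 0 whichever array was left out. Members differing among breeds went from 17 to 10 with slide as a fixed block and 8 with the skeletal muscle covariate (added after seeing the data), and ranged from 8 to 20 with 1 array left out, with 8 without LW HS replicate 2 or 3, 9 without LW HS replicate 4, 10 without LW TN replicate 1 or 3, and 11 without Creole HS replicate 1, F1 TN replicate 1 or LW TN replicate 4. The 17 genes lower in LW stayed between 14 and 23 with 1 array left out, became 11 with the skeletal muscle covariate and lay between 17 and 25 in other settings. The 1 gene higher in LW became 0 under 75th percentile scaling, as a mean of probes and with the skeletal muscle covariate, and 0 to 1 with 1 array left out. Within F1, 1 member (MRPL37) was called with array weights, and 0 to 1 with 1 array left out, the calls arising without F1 HS replicate 4, LW TN replicate 2 or Creole HS replicate 5. Within LW, 2 were called under 75th percentile scaling (MRPL3 and MRPL50), 1 with normexp correction (MRPL50), 1 as a mean of probes (MRPL3), 3 with the skeletal muscle covariate, and 0 to 2 with 1 array left out, the 2 arising without LW HS replicate 5. The cause of these shifts was not tested. The MRPL18 temperature difference changed sign to -0.0858 under 75th percentile scaling and to -0.0422 as a mean of probes, and ranged from -0.0186 to 0.0231 with 1 array left out. For MRPS36 that range was -0.0087 to 0.0472. Over all settings run, 37 of 60 members kept their direction for temperature and 48 of 60 between LW and Creole, the 11 and 18 called ones among them. MRPL21 was among those that did not for temperature (as a mean of probes), with MRPL22, MRPL23, MRPL24, MRPL13 and MRPS26. Counts within Creole, for F1 against mid-parent and for the interaction were 0 in each setting. No paired analysis was possible because the labels give neither replicate numbers nor litters. Signal over background limits MRPL13 and MRPL39, well above background on 11 and 21 of 26 arrays.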

Other observations

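A further 13 probes lead to mitochondrial ribosomal protein genes only through a gene ID or an older name and lie outside the rule, for 8 genes of which 4 have no member probe. The MRPS23 probe among them was lower at HS (-0.19 ± 0.06, adjusted p = 0.0369) and in LW (-0.23 ± 0.07, adjusted p = 0.0360) by limma. Of 2 outside probes for MRPL43, 1 was called lower at HS (-0.25 ± 0.08, adjusted p = 0.0484) and the other in LW (-0.38 ± 0.09, adjusted p = 0.00824). None of the 5 outside probes for MRPL32, the member called higher in LW, was called in either comparison. MRPS11 had a second, dimmer member probe called lower at HS (-0.22 ± 0.07, adjusted p = 0.0390), while its brightest was at -0.13 ± 0.06, not called. One MRPL24 probe reads the opposite strand of another over all 60 bases and differed by -0.02 ± 0.05 with temperature.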
